A study of Mus musculus with 6 samples.

Results

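The 7 genes described here, Tardbp, Ewsr1, Taf15, Matr3, Tia1, Tial1 and Atxn2, encode RNA-binding proteins with prion-like or low-complexity regions, and most of them carry mutations in human neuromuscular or neurodegenerative disease. They were chosen by gene symbol, and every splicing event under one of those symbols was taken from the deposited table. This gave 71 of 45595 events, from 7 of 9594 genes. The study used Neuro-2a, a mouse neuroblastoma line also called N2a. The labels put 3 libraries in a wild-type group and 3 in a group in which hnRNP DL, itself an RNA-binding protein with a prion-like region, was knocked out. The sources used here do not say how the knockout was made or whether it is 1 clone or several. The table names its 2 sets of 3 libraries only sample 1 and sample 2, and no label ties either to a genotype, so they are called set 1 and set 2. Libraries are numbered by their place in the table's lists, and each difference is set 1 minus set 2. For inclusion levels the standard error (SE) is given by the spread between libraries. For log2 differences of junction totals it is the SE of limma, which moderates that spread with the spread of all genes tested.

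These proteins bind RNA through folded domains and come together in liquid-like bodies such as stress granules through their disordered regions. Several of them control their own messages. TDP-43, the product of Tardbp, lowers its own RNA by binding the end of the transcript and favouring splicing inside the last exon, and many splicing regulators carry exons that bring in an early stop and send the RNA to nonsense-mediated decay, the pathway that removes messages with premature stops. A splicing event in the table compares an including form with a skipping form, and its inclusion level, from 0 to 1, is the share of the including form after read counts are divided by the length each form offers.

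The libraries held from 13501749 to 18185394 reads summed over the inclusion and skipping counts of all events. A read can count in more than 1 event, and PCR copies were not marked, so intervals and floors below cover counting error only. Nothing in the labels says that the libraries came from separate cultures, and the p-values measure only the spread between these libraries. Library 1 of set 1 stood apart in junction totals: 283 genes passed the test without it, against 88 with all 6 libraries. Hnrnpdl had 399, 429 and 433 CPM in set 1 and 470, 502 and 502 in set 2, where CPM scales the reads at the best-read event of each gene to a library total of 1000000. Its difference was -0.22 ± 0.09 on the log2(CPM + 1) scale, with a limma adjusted p of 0.392. Where the gene was altered is not given, so these reads check no label. Of 21 markers of neuroblastoma or sympathetic neurons, 11 had enough reads to test. Among these Dbh, the enzyme that makes noradrenaline, and Chgb, a secretory granule protein, were lower in set 1 by limma, with log2 differences of -2.37 ± 0.34 (adjusted p 0.00347) and -1.01 ± 0.17 (adjusted p 0.0132), each ± SE. The summed level of the 11 ran from 924 to 1440 CPM in set 1 and from 1450 to 1750 in set 2. Chgb alone averaged 278 CPM in set 1 and 548 in set 2, and the median log2 difference of the 11 was -0.17. No marker of glia, fibroblast or endothelium, blood or epithelium had enough junction reads to be tested, and these lists hold few genes that the table covers. The part of the marker difference in any result below was not tested. In RNA from whole cultures, fewer cells with a form and less of it per cell cannot be told apart.

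None of the events of these 7 genes passed a test. By the authors' deposited table, 0 of the 71 events had an adjusted p under 0.05 with a change of 0.10 or more, against 0.645% of all events. The smallest adjusted p of the 71 in that table was 0.302. An unadjusted p under 0.05 in the same table was held by 4 of the 71, against 7.19% of all events, and these were a pair in Tia1 and a pair in Atxn2. A moderated quasi-binomial test of the junction reads, run on events with a mean of 20 or more reads per library, covered 69 of the 71. It called 0 of the 69, and 0% of all events tested, so it sets no background above 0. Of the 69, 2 had an unadjusted quasi-binomial p under 0.05, against 3.45% of all events. By limma on logit levels 0 of the 69 were called, and 0 of all 39419 events tested, so it too sets no background above 0. Of the 69, 2 had an unadjusted limma p under 0.05, against 2.99% of all.

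The members' events were read more deeply than most and moved about as little as most. Their median count was 335 reads per library, against 148 over all tested events. The median size of the change in level was 0.00809, against 0.0083 over all tested events. A change of 0.05 or more was found in 2 events, or 2.9%, against 9.82% of all tested events, and 1 reached 0.10. Levels between 0.05 and 0.95 were found in 27 of the 69, or 39.1%, against 30.3% of all. In those 27 the median change was 0.0188 in size with a median SE of 0.0262, and the same medians over all events at such levels were 0.0282 and 0.0394. Set 1 and set 2 had separate ranges in 6 of the 69 events, against 5.93% of all events tested, with 4 higher and 2 lower in set 1. The 71 events are not independent, since many share a junction. They hold 52 distinct sets of skipping counts, but some equal sets are near 0 throughout and belong to different exons, such as the 179-base and 71-base exons of Atxn2.

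**Figure D1:**
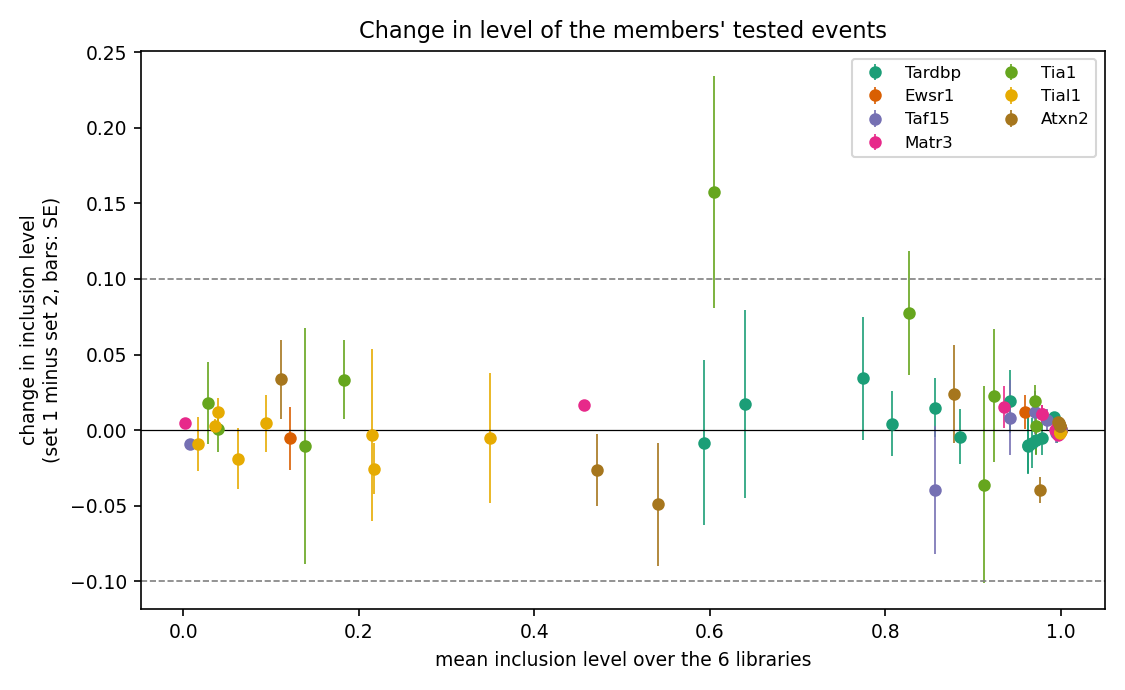
Change in inclusion level (set 1 minus set 2, vertical axis, level units, bars 1 SE of the difference) against the mean level over the 6 libraries (horizontal axis, 0 to 1) for the 69 tested events, coloured by gene. The dashed lines mark 0.10 either way: 1 event, in Tia1, lies outside them.

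Tardbp encodes TDP-43, which binds UG-rich RNA, represses cryptic exons and is found in cytoplasmic inclusions in most amyotrophic lateral sclerosis. Of its 15 events, the 7 alternative acceptor, 3 alternative donor and 3 retained-intron events lay inside the last exon. They gave 6 introns within that exon, each removing from 383 to 410 coding bases together with part of the untranslated end. The other 2 events were the 164-base coding exon and a 273-base untranslated exon further toward the 3′ end. That 273-base segment lies within an exon of Tardbp-202, the 1 transcript annotated as retaining the 941-base, 959-base and 1029-base introns. The segments between the alternative donor sites are shown because they hold the splice sites themselves. They are on the minus strand of mm10, at chr4:148618665-148618673 and chr4:148618647-148618664, from GENCODE vM21 transcripts, and the capitals mark the GT that opens the intron when the site just before each segment is used.
Tardbp 9-base segment: GTaatccag
Tardbp 18-base segment: GTggctttgggaatcagg

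The intron that opens at the 18-base segment and ends 1086 bases into the last exon, 959 bases long, was the most read of the 6. Its junction had 76, 48 and 44 reads in set 1 and 70, 46 and 62 in set 2. The intron that opens 9 bases earlier, 968 bases long, had 30, 42 and 33 reads in set 1 and 59, 39 and 34 in set 2. On both junctions the libraries of the sets overlapped. The remaining 4 introns were rarer. The 941-base intron, which opens after the 18-base segment, had 18, 13 and 8 reads in set 1 and 7, 10 and 16 in set 2. The 1029-base intron, with the most distant acceptor, had 3, 15 and 20 reads in set 1 and 12, 14 and 8 in set 2. The 927-base intron had 1, 0 and 1 reads in set 1 and 4, 2 and 2 in set 2, so its sets did not overlap, on at most 4 reads a library, and the 848-base intron had from 4 to 9. Added over these 6 introns and scaled so that the reads of all events add to 1000000 in a library, the junctions gave 8.02, 8.69 and 8.18 reads in set 1 and 8.85, 8.21 and 9.33 in set 2. The highest values, 8.85 and 9.33, were in set 2, and the lowest, 8.02 and 8.18, were in set 1. The sets overlapped, since 8.21 in set 2 lay below 8.69 in set 1, and the sum was not tested. This sum leaves out the junctions at the edges of the 273-base untranslated exon, which had 411 reads in set 1 and 395 in set 2. It is therefore not all splicing at the end of the gene.

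**Figure D2:**
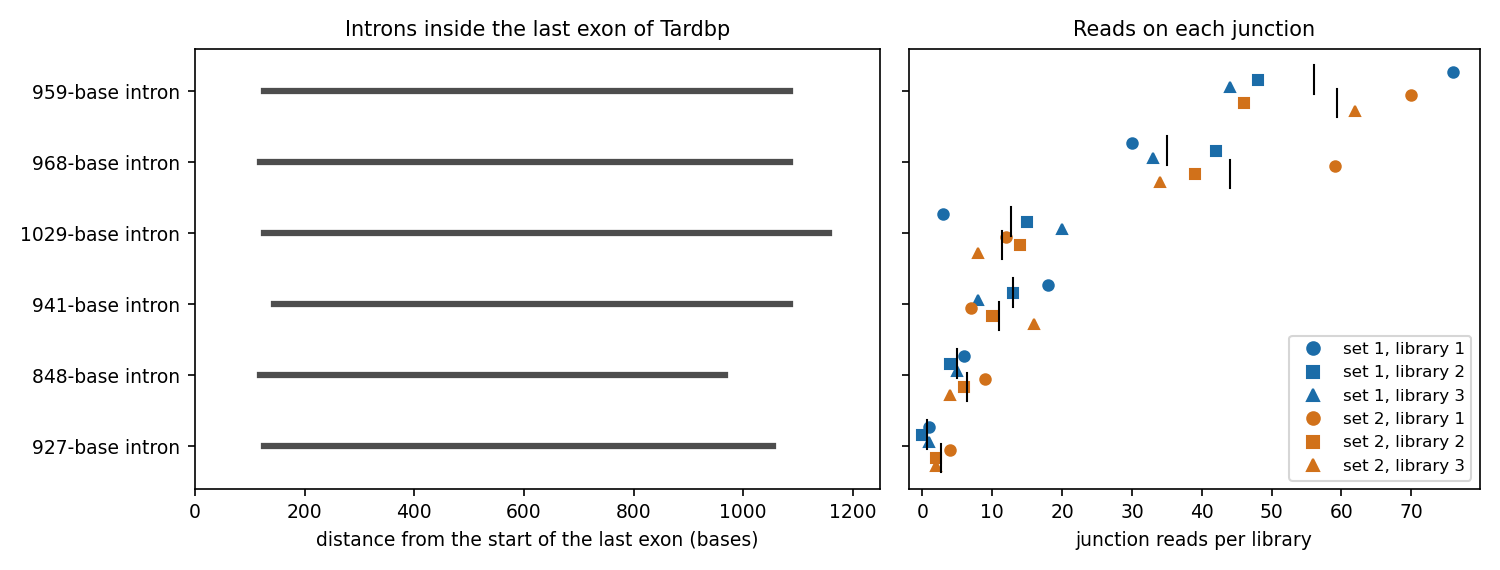
Left, 6 introns inside the last exon of Tardbp, drawn as distance in bases from the start of that exon. Right, the reads on the junction of each intron in each library (points, set 1 blue and set 2 orange, black ticks the set means). The 959-base and 968-base introns hold most of these reads, and the sets overlap in all but the 927-base intron.

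Most Tardbp RNA kept the sequence. The level of the retained form against the 959-base intron was 0.853, 0.902 and 0.895 in set 1 and 0.884, 0.906 and 0.873 in set 2, and against the 1029-base intron it was 0.995, 0.973 and 0.958 in set 1 and 0.983, 0.975 and 0.984 in set 2. The 2 sets overlapped in both. The table's event for the 9-base segment, with the acceptor at 1086 bases, had a level of 0.828, 0.759 and 0.789 in set 1 and 0.692, 0.767 and 0.813 in set 2, a difference of 0.0343 with an SE of 0.0405 that was 0.002 without library 1 of set 2 and 0.062 without its library 3. The one Tardbp event without overlap compared the acceptor of the 927-base intron with one 88 bases before it, and its levels of 0.996, 1 and 0.995 in set 1 and 0.984, 0.99 and 0.99 in set 2 rest on the 2 and 8 reads of that intron's junction. Levels of the alternative donors and acceptors do not measure the choice of site alone, because including counts exceed the reads on the junctions themselves. In the 9-base donor event, 421 and 431 including reads were counted in set 1 and set 2, where the 959-base intron's junction had 168 and 178 and the 968-base intron's had 105 and 132. In the comparison of the 927-base with the 959-base intron, 285 and 333 including reads were counted in set 1 and set 2, where the junction of the 927-base intron itself had 2 and 8. The constitutive 164-base coding exon of Tardbp was skipped in 0 of 5208 set 1 reads (a share of up to 0.0576% is allowed) and in 1 of 5962 in set 2.

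Ewsr1 and Taf15 encode related RNA-binding proteins, EWS and TAF15, known from gene fusions in sarcoma. Ewsr1 had 4 events and Taf15 had 9. Both genes held a skippable 35-base coding exon of related sequence, on the minus strand at chr11:5079485-5079519 in Ewsr1 and on the plus strand at chr11:83497262-83497296 in Taf15. The exons are printed because they are skippable exons of equal length in related genes: 26 of 35 bases, or 74.3%, are equal, in a longest run of 11, and the capitals mark those bases. The 18-base coding exon of Ewsr1, at chr11:5091460-5091477 on the minus strand, is shown as the only Ewsr1 segment that most of its messages leave out. All 3 are from GENCODE vM21 transcripts on mm10.
Ewsr1 35-base exon: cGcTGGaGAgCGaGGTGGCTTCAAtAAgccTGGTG
Taf15 35-base exon: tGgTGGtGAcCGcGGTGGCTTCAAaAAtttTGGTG
Ewsr1 18-base exon: tagaagggaccagtacag

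The related 35-base exons were included at nearly the same level. In Ewsr1 the level was 0.961, 0.954 and 0.981 in set 1 and 0.967, 0.941 and 0.952 in set 2. In Taf15 it was 0.958, 0.909 and 0.97 in set 1 and 0.966, 0.939 and 0.909 in set 2. The ranges of the genes overlapped, and so did the sets within each gene, with differences of 0.0122 (SE 0.0112) in Ewsr1 and 0.0081 (SE 0.0248) in Taf15. The length of 35 bases is not a multiple of 3, so skipping shifts the reading frame, whereas the 18-base exon of Ewsr1 keeps it. That 18-base exon had levels of 0.15, 0.0835 and 0.124 in set 1 and 0.12, 0.114 and 0.14 in set 2. Its sets overlapped, with a difference of -0.0053 (SE 0.0209). The other Ewsr1 exons were almost never skipped: the 124-base exon had 0 skipping of 6684 reads in set 1, a share of up to 0.0449%, and 2 of 6688 in set 2.

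A 120-base stretch in the part of Taf15 that encodes its glycine-rich repeats was spliced out as an intron in some messages, although it is coding and in frame. It lies at chr11:83504711-83504830 on the plus strand of mm10 and is printed, from GENCODE vM21, to show the repeated sequence that forms it. The capitals mark the 5 copies of TATGG, and 51.7% of its bases are G.
Taf15 120-base segment: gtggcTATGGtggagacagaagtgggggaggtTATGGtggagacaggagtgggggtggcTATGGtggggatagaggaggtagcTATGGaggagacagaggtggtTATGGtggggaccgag

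The retained form of that stretch had levels of 0.846, 0.903 and 0.761 in set 1 and 0.893, 0.875 and 0.861 in set 2. Set 2 lay within the range of set 1, and the difference was -0.0397 (SE 0.0422). It was -0.073 without library 2 of set 1 and -0.002 without its library 3. How reads align across such repeats bears on this level and was not tested. The noncoding 92-base exon of Taf15 had the smallest quasi-binomial p of the 69 tested events, 0.0195 unadjusted and 0.735 after Benjamini-Hochberg adjustment. It was nearly always skipped. Its levels were 0.00425, 0.00144 and 0.00303 in set 1 and 0.017, 0.00951 and 0.00916 in set 2, without overlap. These rest on 6 including reads of 1281 in set 1 and 23 of 1208 in set 2. In the authors' deposited table its unadjusted p was 0.848, and limma gave 0.339. The remaining 6 Taf15 events, on exons of 40 to 191 bases, had levels from 0.945 to 1 in every library, and the best read of them, the 130-base exon, had 0.986, 0.98 and 0.996 in set 1 and 0.983, 0.989 and 0.97 in set 2.

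Tia1 and Tial1 encode TIA-1 and TIAR, related proteins that bind U-rich RNA near 5′ splice sites and help to build stress granules. Tia1 had 10 events, and its 33-base coding exon held the largest difference among wholly coding segments of the 7 genes. It lies at chr6:86419101-86419133 on the plus strand and keeps the reading frame. The 6 bases between a pair of donor sites at chr6:86413901-86413906 and a 51-base extension in Tial1 at chr7:128448720-128448770 on the minus strand are shown with it, as coding choices of splice site in this family that keep the frame. Capitals mark the GT that opens the intron of the shorter Tia1 form and the AG that closes the intron of the shorter Tial1 form, and all sequences are from GENCODE vM21 on mm10.
Tia1 33-base exon: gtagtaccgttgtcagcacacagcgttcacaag
Tia1 6-base segment: GTaagg
Tial1 51-base segment: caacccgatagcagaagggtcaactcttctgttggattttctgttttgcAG

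At the 33-base exon the table lists 3 events, among them the 2 largest differences of Tia1. The exon was included at levels of 0.916, 0.835 and 0.844 in set 1 and 0.842, 0.731 and 0.79 in set 2. Set 1 was higher on average by 0.0773 (SE 0.041), but its lowest library lay just under the highest of set 2. The unadjusted p was 0.116 by the quasi-binomial test and 0.023 in the authors' deposited table, where the adjusted p was 0.497. The 1391-base intron that encloses this exon is annotated as retained in 1 transcript, and its retained form had levels of 0.745, 0.675 and 0.631 in set 1 and 0.59, 0.388 and 0.6 in set 2. These did not overlap. The difference was 0.158 (SE 0.0767), with a quasi-binomial unadjusted p of 0.0695 and an adjusted p of 0.735, and an adjusted p of 0.302 in the authors' deposited table. Leaving out each library in turn gave differences from 0.089, without library 2 of set 2, to 0.194. The retained form had 136 reads in set 1 and 139 in set 2, fewer than the 252 and 283 including reads of the 33-base exon. Its level is set against the direct junction of the flanking exons only, and is not a share of all Tia1 messages.

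Both events count the same skipping reads, those that join the flanking exons directly. That junction had 7, 13 and 12 reads in set 1 and 17, 26 and 19 in set 2, without overlap, so the events are not 2 independent results. As a share of the reads of the 33-base exon event it was 11.3% in set 1 (exact Clopper-Pearson 95% interval 7.84 to 15.5%) and 18% in set 2 (14.1 to 22.4%), over the summed reads of each set. The last of the 3 events sets the 33-base exon against a 119-base exon downstream, annotated only in transcripts without a full reading frame, and had levels of 0.972, 0.975 and 0.991 in set 1 and 0.942, 0.969 and 0.97 in set 2. It rests on 8 reads for the 119-base exon in set 1 and 18 in set 2, and its unadjusted quasi-binomial p was 0.202.

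Elsewhere in Tia1 the sets overlapped. A 133-base extension of an exon that appears in no protein-coding transcript had levels of 0.224, 0.152 and 0.223 in set 1 and 0.177, 0.145 and 0.176 in set 2. The longer form of the 6-base choice was little used, with levels from 0.00896 to 0.0899. The best-read event, the 146-base coding exon, had 0.985, 0.974 and 0.962 in set 1 and 0.975, 0.938 and 1 in set 2.

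Tial1 had 11 events, none with separated sets. The 51-base extension had levels of 0.176, 0.285 and 0.181 in set 1 and 0.129, 0.271 and 0.251 in set 2. The 2 sets spanned nearly the same range, with a difference of -0.0031 (SE 0.057). Whether its including reads exceed those of the junction itself, as at the Tardbp sites, was not tested. The 334-base intron near the 3′ end of the coding region was retained at levels of 0.232, 0.192 and 0.188 in set 1 and 0.221, 0.22 and 0.247 in set 2, a difference of -0.0254 (SE 0.0166). Inside that intron a 59-base exon, found only in decay and retained-intron transcripts, had levels of 0.057, 0.0307 and 0.0474 in set 1 and 0.039, 0.0226 and 0.0385 in set 2. A 309-base choice of acceptor between transcripts without a full reading frame had levels from 0.282 to 0.393. The 96-base coding exon was included at 0.995 or more in every library.

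Exons held by no protein-coding transcript made up 7 of the 44 skipped-exon events, with 4 in Tial1, 2 in Tia1 and 1 in Taf15. Of these, 6 are annotated in transcripts subject to nonsense-mediated decay. Their mean levels ran from 0.00741 to 0.139, and the largest difference between the sets was 0.0117 in size. These levels are of RNA that remained, since decay removes such messages.

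Atxn2 encodes ataxin-2, a polyglutamine protein that binds poly(A)-binding protein. Long repeat expansions in it cause spinocerebellar ataxia, and shorter ones raise the risk of amyotrophic lateral sclerosis. It had 9 events, 4 of them at levels between 0.05 and 0.95. The 6 bases between a pair of donor sites, at chr5:121797786-121797791, and the 54-base coding exon at chr5:121806222-121806275 are shown as the smallest of these. Both are on the plus strand of mm10, from GENCODE vM21, and the capitals mark the GT that opens the intron of the shorter form.
Atxn2 6-base segment: GTaaag
Atxn2 54-base exon: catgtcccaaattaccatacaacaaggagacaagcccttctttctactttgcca

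The levels at the 6-base choice were close to even in every library, but whether its including reads come from the junction alone was not tested. The longer form had levels of 0.465, 0.419 and 0.492 in set 1 and 0.479, 0.47 and 0.507 in set 2, a difference of -0.0266 (SE 0.0238). The 169-base coding exon, which shifts the frame when skipped, had levels of 0.509, 0.459 and 0.581 in set 1 and 0.527, 0.596 and 0.573 in set 2. The sets overlapped in both. The 54-base exon was included at 0.147, 0.161 and 0.0791 in set 1 and 0.0937, 0.108 and 0.085 in set 2, with overlap, and had an unadjusted p of 0.046 and an adjusted p of 0.734 in the authors' deposited table. The 210-base exon had levels of 0.918, 0.873 and 0.879 in set 1 and 0.924, 0.842 and 0.832 in set 2.

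The 183-base coding exon of Atxn2 was the one event of the gene without overlap. Its levels were 0.946, 0.952 and 0.97 in set 1 and 1, 1 and 0.987 in set 2. The skipping junction had 4, 3 and 2 reads in set 1 and 0, 0 and 1 in set 2, or 2.27% (exact interval 1.04 to 4.26%) and 0.217% (0.00549 to 1.2%) of the reads of each set. The difference was -0.0396 (SE 0.00851). The unadjusted p was 0.0411 by the quasi-binomial test, 0.00251 by limma and 0.0194 in the authors' deposited table. The adjusted p was 0.735 by the quasi-binomial test, 0.772 by limma and 0.449 in the authors' deposited table. No annotated transcript skips this exon. The other 4 exons were included at 0.986 or more in every library.

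**Figure D3:**
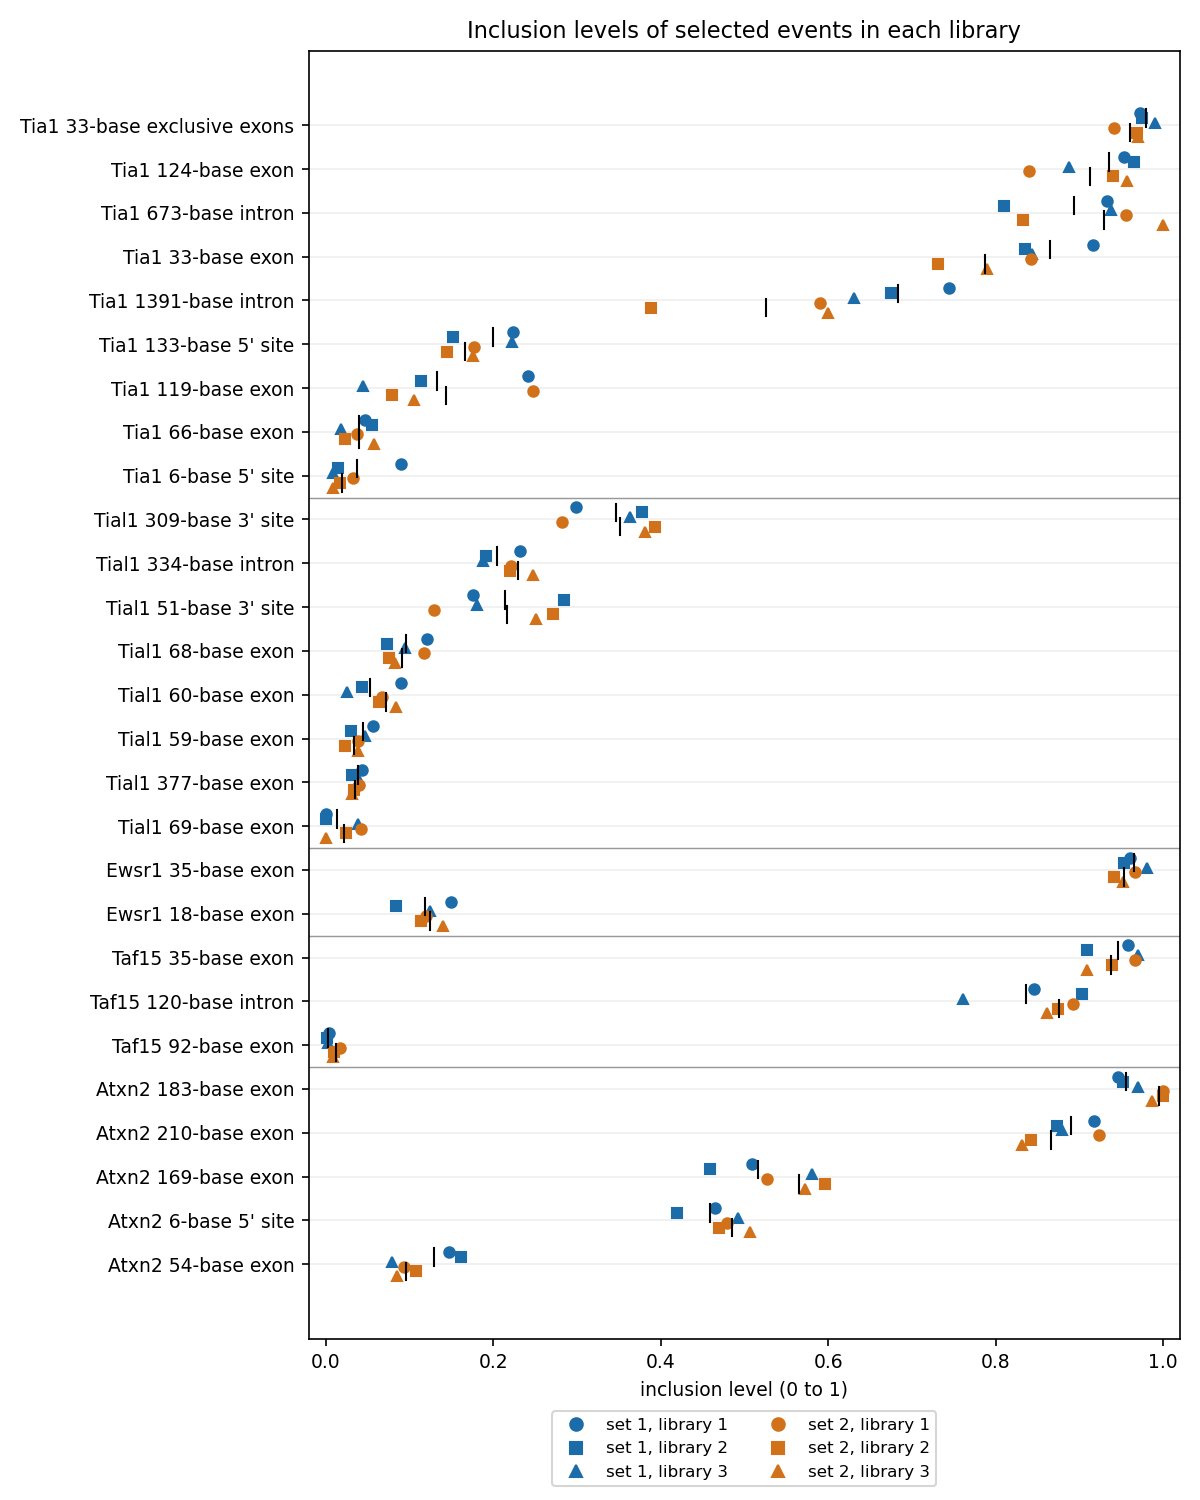
Inclusion level (horizontal axis, 0 to 1) of the tested events of 5 genes with a mean level up to 0.96 or with separate sets, in each of the 6 libraries, set 1 in blue and set 2 in orange, with black ticks at the set means. The sets separate in the 1391-base intron and the exclusive exons of Tia1, the 92-base exon of Taf15 and the 183-base exon of Atxn2, and overlap in the others.

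Matr3 encodes matrin-3, a nuclear matrix protein with zinc fingers and RNA recognition motifs, mutated in amyotrophic lateral sclerosis and distal myopathy. It had 13 events, of which 11 had enough reads to test, and most of its exons were used almost without exception. The 8-base choice of donor site had levels from 0.992 to 1, and a 1093-base exon that begins the coding region had levels of 0.946, 0.946 and 0.937 in set 1 and 0.946, 0.936 and 0.901 in set 2. The table lists a pair of adjacent 126-base coding exons as mutually exclusive, with levels of 0.467, 0.468 and 0.46 in set 1 and 0.443, 0.449 and 0.452 in set 2. The sets did not overlap, the difference was 0.0166 (SE 0.00362), and the adjusted p was 0.735 by the quasi-binomial test and 0.772 by limma. The reads do not show the exons excluding each other. The second exon was skipped in 3 of 3649 reads in set 1 and in 0 of 4135 in set 2, a share of up to 0.0726%, and all 8 annotated transcripts that hold the first also hold the second. The level near the middle then compares reads at the edges of exons that are both present. Of the 2 events too thinly read to test, the 206-base noncoding exon had levels of 0.238, 0.308 and 0.294 in set 1 and 0.2, 0.143 and 0.222 in set 2 on 41 and 34 reads.

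Annotated transcripts held a skipping form for some of the exons and not for others. Of the 44 skipped-exon events, 22 had a skipping form in an annotated transcript, and their median level was 0.388 with a range from 0.00741 to 1. The other 22 had a median of 0.998 with a range from 0.942 to 1. The 44 events covered 41 distinct exons, of which 30 were wholly coding.

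The amount of RNA from each gene was taken from its event with the most junction reads, scaled to CPM. No member differed between the sets by limma on log2(CPM + 1): 0 of 7 were called, against 1.06% of 8285 genes, 0 of 7 had an unadjusted p under 0.05, against 9.45%, and 0 of 7 had sets that did not overlap, against 14.1%. The smallest adjusted p was 0.741. The log2 differences were -0.15 ± 0.10 for Tardbp, 0.04 ± 0.10 for Ewsr1 and 0.13 ± 0.11 for Taf15. They were -0.13 ± 0.10 for Matr3, 0.20 ± 0.16 for Tia1, 0.03 ± 0.11 for Tial1 and -0.09 ± 0.15 for Atxn2, each with its SE. The median size was 0.127, against 0.126 over all genes. Tardbp had 356, 417 and 408 CPM in set 1 and 406, 434 and 466 in set 2. Tia1 had 52.4, 52.9 and 50.7 CPM in set 1 and 57, 43.3 and 37.5 in set 2, so set 2 spanned more than the whole of set 1. The sign of the Tia1 difference turned when all events of a gene were added (-0.03), and that of Tial1 did so too (-0.02).

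Per 100 bases of form length, which allows levels of genes to be compared, the order was Ewsr1, Tardbp, Tial1, Matr3, Taf15, Atxn2 and Tia1. Ewsr1 ran from 162 to 196 CPM per 100 bases over the 6 libraries and Tardbp from 119 to 156, without overlap. Tial1 ran from 96.3 to 117 and Matr3 from 90.1 to 116, which overlap, and Taf15 ran from 70.7 to 92.8, just touching the lowest Matr3 library. Atxn2, at 23.7 to 32.2, and Tia1, at 12.8 to 19.6, lay apart from the rest and from each other. These are junction reads at 1 event a gene and not whole transcripts.

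**Figure D4:**
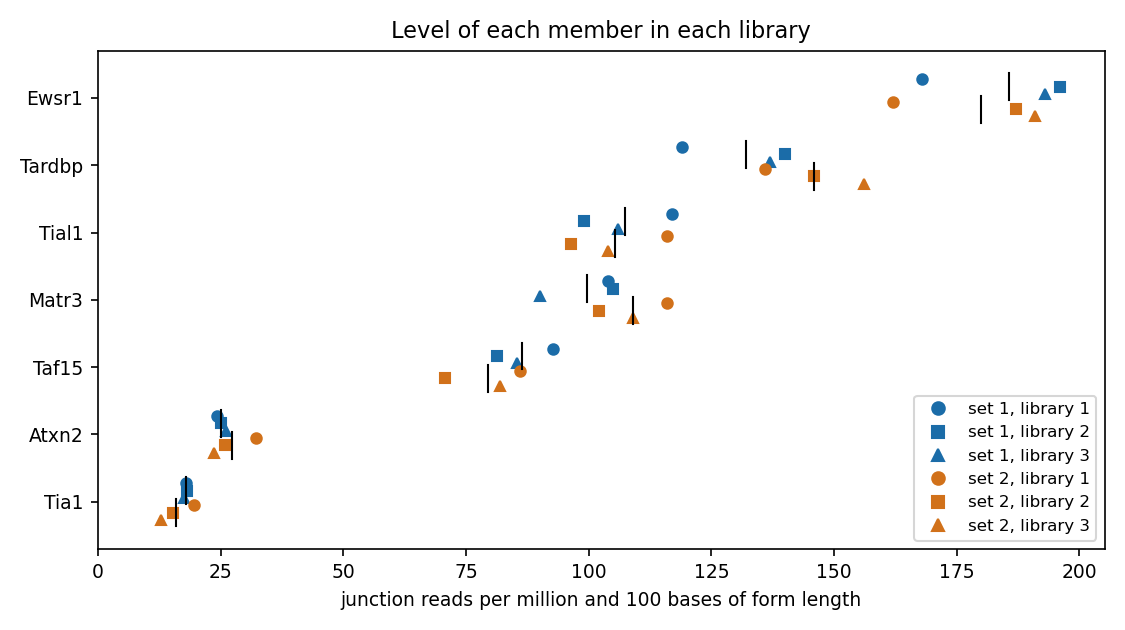
Junction CPM per 100 bases of form length (horizontal axis, starting at 0) for the best-read event of each gene in each library, set 1 in blue and set 2 in orange, black ticks the set means. Ewsr1 is highest and Tia1 lowest, and the sets overlap in all 7 genes.

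The gene whose total followed each member most closely over the 6 libraries, by Pearson r of log2(CPM + 1) among 8284 others, was Plekhm3 for Tardbp (r = 0.991), Txnrd1 for Ewsr1 (0.997) and Tmem30a for Taf15 (0.994). It was Ttll7 for Matr3 (0.988), Akap7 for Tia1 (0.991), Paqr3 for Tial1 (0.993) and Mast2 for Atxn2 (0.986). Each is the highest of 8284 values over 6 libraries that share their depth, and is a description only.

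In 4 lists of other genes of the same biology, no total and no tested event was called. The quasi-binomial test called 0% of all events, so its 0 calls here were certain for any list. An unadjusted quasi-binomial p under 0.05 was held by 3.45% of all events, and limma called 1.06% of all totals. Of 27 other genes linked to amyotrophic lateral sclerosis or frontotemporal dementia, 16 were in the table, and 0 of 16 totals and 0 of 90 tested events were called by limma and by the quasi-binomial test. Of those 90 events, 1 had an unadjusted p under 0.05. Of 30 stress granule proteins 25 had a testable total, with 0 called, and 0 of 211 tested events were called, 5 of them with an unadjusted p under 0.05. Of 13 paraspeckle proteins 11 were tested, with 0 called, and 0 of 93 events, 5 with an unadjusted p under 0.05. Among 12 genes with exons described as responding to TDP-43, 9 totals were tested and 0 called, and 0 of 47 tested events were called, 1 with an unadjusted p under 0.05. The authors' deposited table called 1 event in these lists, a 6-base exon of Unc13a, which encodes a protein that primes synaptic vesicles. Its levels were 0.492, 0.285 and 0.421 in set 1 and 0.931, 1 and 0.813 in set 2, with an adjusted p of 9.84e-06 in the authors' deposited table. The event had a mean of 14.3 reads per library, under the minimum used here, and was not tested by the quasi-binomial test. The lists count every event of a listed gene. Whether this 6-base exon is among the exons described as responding to TDP-43 was not tested.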

How the data were processed

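Total RNA of N2a cells was sequenced from 6 libraries, 3 per genotype by the labels, after Trizol extraction and a NEBNext Ultra kit. Per the submitters' processing notes the build was mm10 and the tools, with no role stated, HTSeq 0.6.0, HISAT2 2.1.0 and Bowtie2 2.2.3. The deposited table has 5 sections laid out as rMATS writes them, per the file headers. The authors gave junction counts of the including and skipping forms, form lengths, inclusion levels (a fraction), p-values and adjusted p-values. The rMATS version and its annotation were not given in the sources used here.

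Every event with a mean of 20 or more reads per library was tested, set 1 against set 2, by a quasi-binomial test with a moderated dispersion never below 1, in R 4.3.3. The prior came from events with a mean of 5 or more reads of the rarer form. This reading was kept after both it and a sum over libraries had been run, because it matches an earlier analysis. Benjamini-Hochberg adjustment ran over 39419 events. A call needed an adjusted p under 0.05 and a change of 0.10. Gene totals used limma 3.58.1 with a trend on log2(CPM + 1), on genes with a mean of 20 or more reads. Both were tested on simulated data. Sequences and coding annotation came from GENCODE vM21 on mm10.

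Events given by library were, for each gene, the best read at a level from 0.05 to 0.95, the one with the smallest p, those called or with an unadjusted p under 0.05, and the best read of each kind. A few more were chosen after their values were seen: the events at the 33-base exon of Tia1, the 35-base exons, the nonsense-mediated decay exons, and further Tardbp and Atxn2 events. The members and lists were chosen with earlier results of these data known.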

Additional observations from a re-analysis of the deposited data

How the results depend on the processing

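No event and no junction total of the 7 genes was called under any alternative run: 12 for events (limma on logit levels, other dispersion priors, read minimums of 10 and 50 or none, each library left out) and 11 for totals (median scaling, pseudocounts of 0.5 and 5, a lower minimum, sums over events, each library left out). The number of members' events with an unadjusted p under 0.05 was 2, fell to 1 with the rarer form counted over all 6 libraries (an alternative chosen after seeing the data), and ran from 0 to 4 with a library left out, the 4 being without library 1 of set 1. Over the whole table that alternative called 11 events and a dispersion prior along the total count called 64, against 0. Leaving out library 1 or 3 of set 1 called 5 and 2. The other alternatives for events called 0 over the whole table, so 0 calls among the members were certain there. Genes called ran from 26 to 283 with a library left out, against 88.

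Of 26 events given by rule, 15 kept their sign in every alternative. The 124-base Ewsr1, 164-base Tardbp and second 126-base Matr3 exons, 3 events, fell to 0 without the library that held their skipping reads. The other 8 turned only when a library was left out, with changes from -0.021 to 0.013 for the 18-base Ewsr1 exon, -0.006 to 0.026 for the 35-base Taf15 exon, -0.023 to 0.004 for the 190-base Tardbp acceptor choice, -0.015 to 0.003 and -0.014 to 0.011 for its 1029-base and 959-base introns, -0.014 to 0.017 for the 146-base Tia1 exon, and -0.047 to 0.024 and -0.002 to 0.001 for the 51-base extension and 96-base exon of Tial1. The cause was not tested. Leaving out a library moved 22 of the 26 by over 1.5 times. Among those that kept their sign, changes ran from -0.043 to -0.007 for the 6-base Atxn2 segment, 0.007 to 0.053 for its 210-base exon, -0.04 to -0.017 for the 334-base Tial1 intron and 0.0491 to 0.104 for the 33-base Tia1 exon, which was given in addition. Of the totals, 4 of 7 turned: Ewsr1 (-0.03 to 0.11), Tial1 (-0.04 to 0.1) and Atxn2 (-0.19 to 0.06) with a library left out, and Tia1 (-0.03) and Tial1 (-0.02) when all events were summed.

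No paired analysis was possible because the table's libraries carry no replicate number. The median SE was 0.0262 at middle levels, and some junctions had under 10 reads in every library.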
